A study of Rattus norvegicus with 9 samples.

Results

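Glycosaminoglycans (GAGs) are built by a chain of enzymes, and the transcripts of these enzymes were compared between whole bone of the rat skull and whole bone of the limb. The set held 47 genes chosen by their known place in the pathway. Of these, 7 supply the sugar and sulphate precursors, 5 build the linker that joins a chain to its core protein, 15 polymerise or epimerise the chain and 20 add or remove sulphate. On the array, 39 of the 47 had at least 1 probe set (a group of short array sequences against 1 transcript) that named that gene alone, out of 14217 such genes, and the 8 others (Chst7, Chst13, Chst15, Ust, Dse, Ndst3, Has1 and Has3) were not measured. The 39 genes had 53 probe sets in all, and the one with the highest mean log2 signal stood for its gene.

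GAGs are long sugar chains carried by proteoglycans. A short linker that starts with xylose is made on the core protein, chondroitin or heparan is polymerised on it, and in the Golgi the chain is epimerised and sulphated with the donor PAPS, whereas hyaluronan is extruded at the cell surface without core protein or sulphate. In bone, decorin and biglycan carry mainly chondroitin and dermatan sulphate, and the heparan sulphate of glypicans and syndecans binds growth factors at the cell surface.

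The skull group was the calvaria (the vault of the skull, n = 4 arrays) and the limb group was the ulna (the forelimb bone beside the radius, n = 5 arrays), both from male CD rats with a labelled weight of 110 g. No treatment, allele or age was named for either group. According to the methods of the study, soft tissue and sutures or epiphyses were removed and the bones of several rats were extracted together. An array therefore stood for a pool of animals, and the p-values measure the spread between pools. Signals are MAS5 values in arbitrary units after each array was scaled to a common median. All differences are skull minus limb on the log2 scale, and the S:L ratio divides the mean scaled signal in the skull by that in the limb.

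The array medians before this scaling were 33.01 to 36.59, and probe sets against a bacterial transcript absent from the samples reached 8.3. A tissue field in the labels of ulna 1, 2, 3 and 4 names the calvaria, in conflict with their titles and source names. Hoxa9, a positional gene of the limb and trunk, had signals of 60.4 to 79.0 on the 5 limb arrays and 1.82 to 4.80 on the 4 skull arrays. Of 19 skeletal muscle markers 18 were lower in the skull by at least 2-fold. The summed signals of the 19 were 866 to 945 in the skull and 12200 to 31500 in the limb. The probe set named Myh1 was higher (0.59), and its 532 to 696 in the skull made up most of the skull sum. The other 18 had skull means of at most 59.7. Whether the Myh1 probe set reads that gene alone was not tested. At 2-fold and an adjusted p below 0.05, erythroid markers (8 of 10) and neutrophil markers (4 of 8) were also lower in the skull. The share of all genes was 4.31%. Osteoclast (6 of 8) and osteoblast markers (5 of 11) were higher, against 3.47% of all genes. So were mast cell (5 of 12) and endothelial markers (2 of 9, with 1 lower). By the adjusted p alone, 9 erythroid and 8 neutrophil markers were lower, against 16.6% of all genes. On that count 7 osteoclast, 7 osteoblast, 5 mast cell (2 lower) and 8 endothelial markers (1 lower) were higher, against 12.9%. Of 7 osteocyte markers 1 was higher at both thresholds and 3 by the adjusted p. Of 12 cartilage markers 2 were lower at both thresholds, and 3 were lower and 1 higher by the adjusted p. Col9a1 was at the floor on all 9 arrays, and Col2a1 had mean signals of 14.9 and 21.4.

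The stretches of 250 bases before the annotated gene start are shown for the 2 enzymes that passed both thresholds (Papss2 and Slc35b2), for the other PAPS synthase (Papss1) and for Chpf, the only one of the 11 higher enzymes with a matched sequence that held the core of a cyclic AMP response element (CRE). They are RefSeq sequences of the GRCr8 assembly, written from the gene's own 5' to 3' direction, and capitals mark the CRE core TGACGT and the GC box GGGCGG on either strand.
Papss2 (chr1:239867463-239867712, plus strand): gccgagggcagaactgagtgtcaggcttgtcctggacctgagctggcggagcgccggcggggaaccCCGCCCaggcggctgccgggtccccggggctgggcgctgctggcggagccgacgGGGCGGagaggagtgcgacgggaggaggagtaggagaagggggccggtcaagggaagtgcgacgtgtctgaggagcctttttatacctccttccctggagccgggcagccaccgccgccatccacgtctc
Papss1 (chr2:222714180-222714429, plus strand): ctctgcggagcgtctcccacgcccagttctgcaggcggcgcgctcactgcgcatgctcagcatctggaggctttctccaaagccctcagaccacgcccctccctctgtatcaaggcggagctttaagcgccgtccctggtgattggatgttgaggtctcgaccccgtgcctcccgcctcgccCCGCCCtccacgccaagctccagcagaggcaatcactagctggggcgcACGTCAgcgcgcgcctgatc
Slc35b2 (chr9:22939665-22939914, minus strand): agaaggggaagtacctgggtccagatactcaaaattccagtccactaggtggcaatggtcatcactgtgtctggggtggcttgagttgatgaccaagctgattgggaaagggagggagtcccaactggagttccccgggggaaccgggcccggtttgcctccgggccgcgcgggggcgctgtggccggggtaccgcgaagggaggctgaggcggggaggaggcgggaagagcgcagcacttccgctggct
Chpf (chr9:84416524-84416773, minus strand): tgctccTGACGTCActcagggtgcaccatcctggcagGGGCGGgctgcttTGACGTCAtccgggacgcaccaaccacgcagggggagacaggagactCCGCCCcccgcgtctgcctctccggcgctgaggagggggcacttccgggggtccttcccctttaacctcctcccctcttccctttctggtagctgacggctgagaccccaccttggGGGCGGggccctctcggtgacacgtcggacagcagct
A sequence was matched for 29 of the 39 measured enzymes. The GC box was found in 18 of the 29 (62.1%), against 30.5% of all 33469 RefSeq promoters of that length. Among higher enzymes it was in 7 of 11 (63.6%), and among measured enzymes that did not pass the test in 10 of 17 (58.8%). The CRE core was in 3 of 29 (10.3%; Chpf, Papss1 and Xylt1), against 6.95% of all promoters. Chpf held 2 copies extended to the full palindrome, each of which matches on both strands. CCAAT was found in 8 of 29 (27.6%, against 34.0%), TATAAA in 2 of 29 (6.90%, against 12.9%) and the Runx core TGTGGT in 0 of 29 (against 14.5%). None of the 5 motifs contains another. A match is a run of letters, not a measured site.

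Transcripts of the pathway were more often higher than lower in the skull. GAG content and sulphation were not measured on these arrays, and enzyme transcripts do not stand for them. Papss2 makes the sulphate donor PAPS and Slc35b2 carries it into the Golgi. They were the 2 of 39 enzymes (5.13%) that were higher at both thresholds (a 2-fold difference and an adjusted p below 0.05). This share stood near the 3.47% of all genes. By limma no enzyme was lower at both thresholds, against 4.31% of all genes, and none was with the methods' t-test. At an unadjusted p below 0.05, 4 enzymes were lower and 20 higher. The share of all genes at an unadjusted p was not counted, here or below. With log2(signal + 16) in place of a floor on low signals, Papss2 and Slc35b2 each had a difference of 0.99, just short of 2-fold, and still passed the adjusted p. By the adjusted p alone, 15 enzymes (38.5%) were higher in the skull, against 12.9% of all genes, and 3 (7.69%) were lower, against 16.6%. The other 21 did not pass, with 15 differences above 0 and 6 below. All p-values for single genes are from limma, adjusted by Benjamini-Hochberg over 31042 probe sets.

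The median difference of the 39 enzymes was 0.40, against -0.02 for all genes, with a range from -0.88 (Csgalnact1) to 1.09 (Papss2). All skull arrays lay above all limb arrays for 16 enzymes (41.0%, against 12.4% of all genes) and below them for 3 (7.69%, against 16.4%). The sixteenth, next to the 15 that passed, was Extl2 (0.36, adjusted p = 0.0675). Bright genes pass more often than dim ones. Among the 31 enzymes whose mean signal reached the median of all probe sets, 48.4% were higher, against 17.6% of genes of that brightness, and 9.68% were lower, against 23.2%. None of the 8 dimmer enzymes (Slc26a2, Xylt1, B3galt6, Extl1, Chst3, Chst11, Hs6st2 and Ndst1) passed, and 1 had an unadjusted p below 0.05. The arrays hold whole bone, so more cells of a type that make a transcript and more transcript per cell cannot be told apart for any of these genes.

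**Figure D1:**
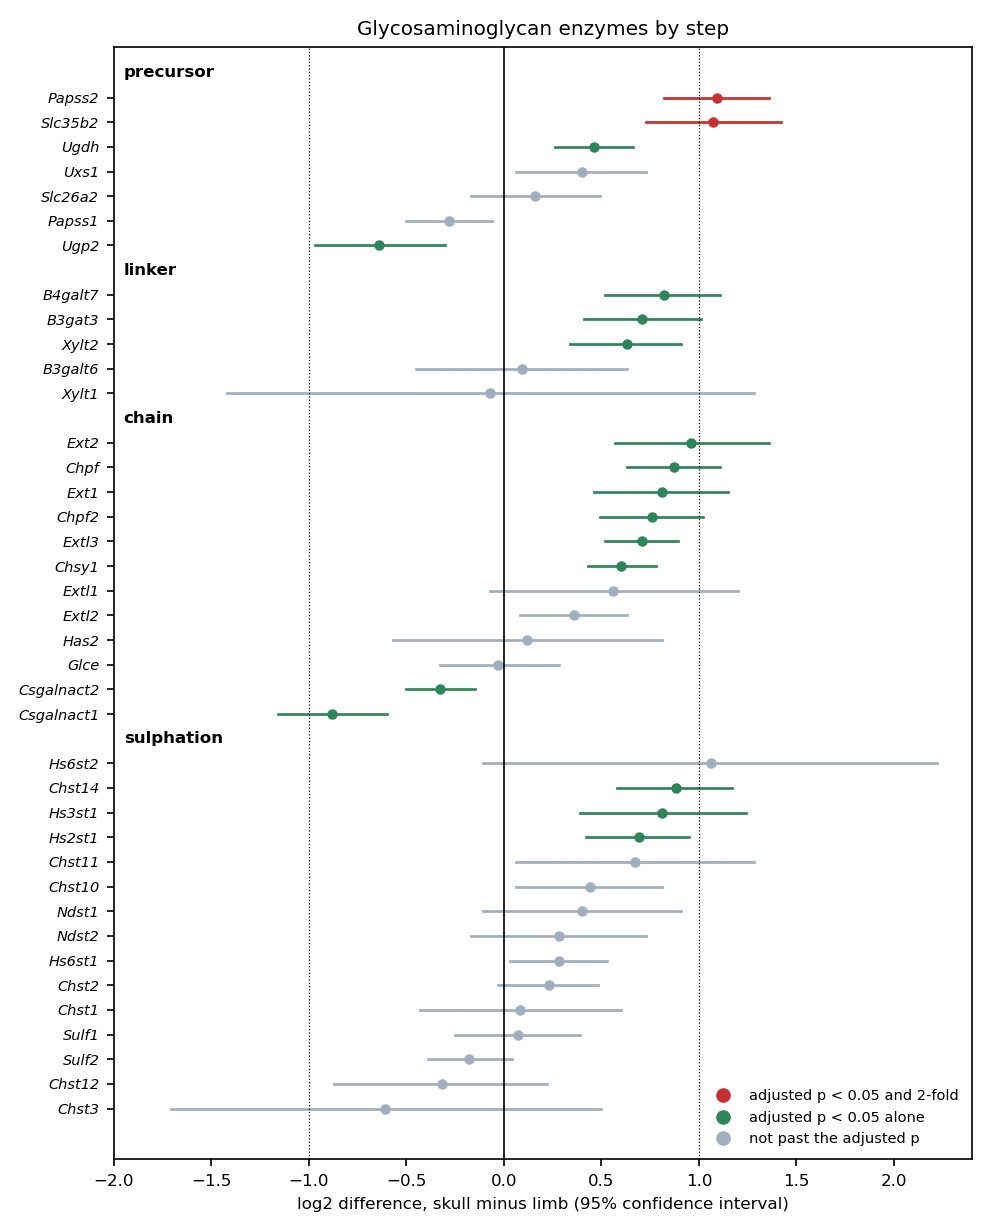
Log2 difference between skull and limb (x axis, skull minus limb) of the 39 measured enzymes, grouped by step, with points for the estimate and bars for the 95% confidence interval; dotted lines mark 2-fold. Papss2 (1.09) and Slc35b2 (1.07) are past both thresholds, Csgalnact1 (-0.88) has the lowest value, and 12 of the 15 sulphation genes do not pass the adjusted p.

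Of the 7 precursor genes, 3 (42.9%) were higher and 1 (14.3%) was lower in the skull, against 12.9% and 16.6% of all genes, with a median of 0.40. Papss2, a PAPS synthase, had scaled signals of 215, 242, 256 and 203 on calvaria 1 to 4 and of 114, 127, 86.7, 112 and 100 on ulna 1 to 5. Every skull array was above every limb array (S:L ratio 2.12, log2 difference 1.09 ± 0.12 SE, n = 4 and 5, adjusted p = 0.000248). Its further probe set was also past both thresholds (1.15 ± 0.15, adjusted p = 0.000679). Papss1, the paralogue that makes the same product, had 545, 436, 492 and 391 in the skull and 542, 508, 569, 598 and 595 in the limb. The sites overlapped through calvaria 1, and the difference of -0.28 ± 0.10 did not pass (adjusted p = 0.0756). Without calvaria 1 it was -0.36 and passed (adjusted p = 0.0236).

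Slc35b2, the transporter that moves PAPS from the cytosol into the Golgi, gave 227, 300, 339 and 201 in the skull and 145, 122, 118, 121 and 115 in the limb. The sites did not overlap (S:L ratio 2.14, 1.07 ± 0.15, adjusted p = 0.00107), and the skull arrays were the more spread. Calvaria 3 had the highest signal, and without it the difference was 0.95, below 2-fold, with an adjusted p of 0.00243. Slc26a2, the sulphate carrier of the plasma membrane, was not above the absent control on any array (0.511 to 3.91 in the skull, 0.510 to 2.01 in the limb), so it was not well above background.

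Ugp2, Ugdh and Uxs1 act in sequence from glucose 1-phosphate to UDP-glucose, UDP-glucuronic acid and UDP-xylose. Ugp2 had signals of 359, 321, 374 and 233 in the skull and 572, 553, 465, 432 and 454 in the limb. All limb arrays were above all skull arrays (S:L ratio 0.649, -0.64 ± 0.15, adjusted p = 0.0143). The next enzyme, Ugdh, differed the other way. It had 402, 465, 492 and 375 in the skull against 351, 306, 301, 307 and 308 in the limb, with no overlap (0.46 ± 0.09, adjusted p = 0.00550). Uxs1 had a difference of 0.40 ± 0.15 (adjusted p = 0.0921), with overlapping ranges of 107 to 167 and 92.7 to 127. Ugp2 also serves glycogen synthesis, and the muscle markers given above were higher in the limb. Their part in its difference was not tested.

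The linker enzymes act in the order Xylt1 or Xylt2 (xylose), B4galt7 (the first galactose), B3galt6 (the second galactose) and B3gat3 (glucuronic acid). The skull was higher for 3 of these 5 genes (60.0%, against 12.9% of all genes) and lower for none, also at an unadjusted p, with a median of 0.63. Xylt2 had 178, 200, 178 and 172 in the skull and 87.7, 114, 129, 126 and 138 in the limb. Its skull arrays lay close together and above the limb (0.63 ± 0.13, adjusted p = 0.00713), and both further probe sets passed too (0.90 and 0.92). B4galt7 had 64.3, 81.5, 85.8 and 60.1 in the skull and 42.8, 42.7, 36.5, 42.9 and 40.4 in the limb. Here the limb arrays were the tighter group (S:L ratio 1.78, 0.82 ± 0.13, adjusted p = 0.00195).

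B3gat3, which completes the linker, had 157, 197, 210 and 186 in the skull and 108, 125, 99.9, 145 and 98.9 in the limb. The gap between calvaria 1 and ulna 4 was narrow, but the sites did not overlap (0.71 ± 0.13, adjusted p = 0.00489). B3galt6 had a difference of 0.09 ± 0.24 (adjusted p = 0.855), with calvaria 1 at 40.3 and the other skull arrays at 21.8 to 23.6, inside the limb range of 17.9 to 28.1. Xylt1 spanned 0.918 to 14.2 in the skull and 3.53 to 15.6 in the limb and was above the absent control on 7 of 9 arrays, and its difference of -0.07 ± 0.60 has an interval from -1.42 to 1.28.

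Among the 12 measured chain enzymes 6 (50%) were higher and 2 (16.7%) were lower, against 12.9% and 16.6% of all genes, with a median of 0.58. The 2 lower ones were the paralogues Csgalnact1 and Csgalnact2, which add the first N-acetylgalactosamine and so commit a linker to chondroitin. Csgalnact1 had 84.3, 63.9, 72.5 and 71.4 in the skull and 114, 119, 153, 131 and 160 in the limb. The groups were well apart (S:L ratio 0.540, -0.88 ± 0.12, adjusted p = 0.000985), while its dimmer further probe set did not pass (-0.70 ± 0.31, adjusted p = 0.154). Csgalnact2 had 241, 203, 233 and 203 in the skull and 256, 267, 310, 268 and 279 in the limb. The sites did not overlap, but the step from calvaria 1 to ulna 1 was small (-0.33 ± 0.08, adjusted p = 0.0145).

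The 3 measured genes of chondroitin polymerisation were all higher in the skull. Chsy1, a polymerase with both transferase activities, had 588, 625, 732 and 574 in the skull and 434, 429, 381, 417 and 405 in the limb. No arrays overlapped (0.60 ± 0.08, adjusted p = 0.000619). Chpf, the polymerising partner of Chsy1, had 201, 219, 255 and 264 in the skull and 120, 148, 113, 133 and 127 in the limb. The lowest skull array stood clear of the highest limb array (S:L ratio 1.83, 0.87 ± 0.10, adjusted p = 0.000428). Chpf2, a further polymerising factor, had 134, 167, 164 and 144 in the skull and 103, 95.2, 77.4, 99.0 and 77.5 in the limb, again without overlap (0.76 ± 0.12, adjusted p = 0.00156). Of its further probe sets, the brighter passed (0.61, adjusted p = 0.00989) and the other did not (0.82, adjusted p = 0.0506).

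On the heparan side, Extl3 adds the N-acetylglucosamine that starts the chain. Its signals were 223, 251, 232 and 248 in the skull and 134, 163, 129, 157 and 150 in the limb. Both groups were tight and did not overlap (0.71 ± 0.08, adjusted p = 0.000346). A second, dim probe set, with mean signals of 6.35 and 7.12, showed no such difference (0.20 ± 0.76, adjusted p = 0.901). Ext1 and Ext2 form the complex that elongates heparan. Ext1 had 265, 279, 389 and 257 in the skull and 145, 202, 140, 177 and 181 in the limb. Ext2 had 370, 437, 545 and 303 in the skull and 214, 263, 199, 196 and 175 in the limb. For both subunits calvaria 3 was the highest and calvaria 4 the lowest skull array, and neither overlapped the limb. The difference was 0.81 ± 0.15 for Ext1 (adjusted p = 0.00481) and 0.96 ± 0.17 for Ext2 (adjusted p = 0.00388), and Ext2 lay between 0.82 and 1.10 when any array was left out.

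The other chain enzymes did not pass. Extl1, a transferase of heparan elongation, had 0.56 ± 0.28 (adjusted p = 0.205). Extl2, which can add a terminal residue to the linker, had 42.5 to 53.3 in the skull and 31.0 to 39.6 in the limb without overlap (0.36 ± 0.12, adjusted p = 0.0675). Glce, the epimerase that turns glucuronic into iduronic acid, had -0.03 ± 0.13 with an interval from -0.33 to 0.28. Has2, the only hyaluronan synthase measured, had 25.8, 44.0, 46.7 and 28.6 in the skull and 48.2, 21.3, 23.8, 43.1 and 33.4 in the limb. Those ranges cover each other almost wholly, and the interval of its difference, from -0.57 to 0.81, leaves its direction unresolved.

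**Figure D2:**
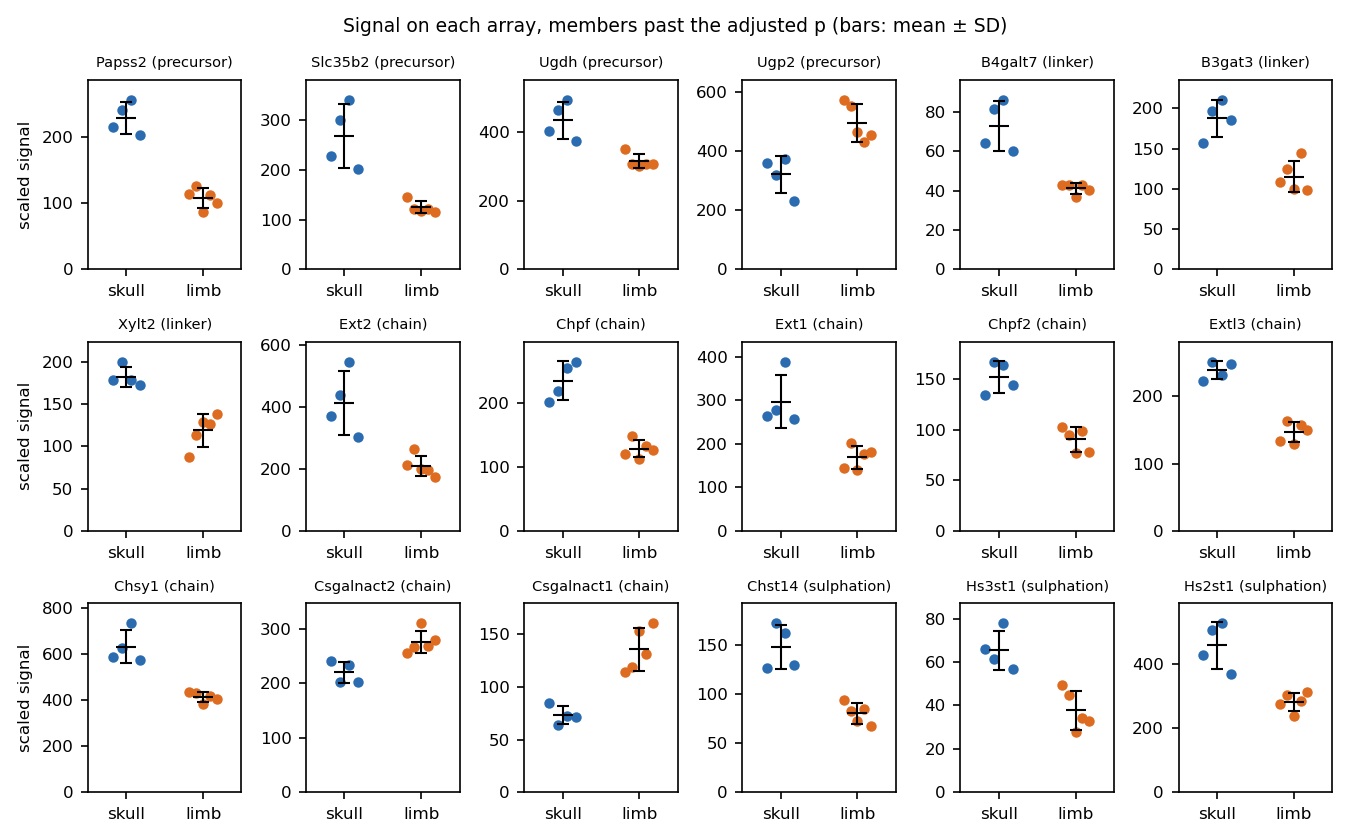
Scaled signal (y axis, arbitrary units, from 0) on each skull and limb array for the 18 enzymes past the adjusted p, with 1 panel per gene; points are arrays and bars are the mean ± SD. Every panel separates the 4 skull from the 5 limb arrays, with the limb higher for Ugp2, Csgalnact2 and Csgalnact1 and the skull higher for the other 15.

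Of the 15 measured genes that add or remove sulphate, 3 were higher in the skull and 12 did not pass, with a median of 0.28. The 20% that were higher stood near the 12.9% of all genes. None was lower, against 16.6% of all genes. At an unadjusted p below 0.05, 6 were higher and none lower. Chst14, the 4-O-sulphotransferase of dermatan, had 127, 172, 162 and 130 in the skull and 93.8, 82.6, 72.3, 85.2 and 67.7 in the limb. The sites did not overlap (S:L ratio 1.84, 0.88 ± 0.13, adjusted p = 0.00129). Hs2st1, which sulphates the uronic acid of heparan at position 2-O, had 428, 506, 526 and 368 in the skull and 276, 302, 239, 283 and 311 in the limb. Its skull arrays lay above the limb on all 3 probe sets, and all 3 passed (0.69 ± 0.12, adjusted p = 0.00304, with 0.70 and 0.98 for the others). Hs3st1, which makes the rare 3-O-sulphated glucosamine that binds antithrombin, had 65.8, 61.3, 77.8 and 57.0 in the skull and 49.5, 44.8, 27.7, 34.3 and 32.9 in the limb. Ulna 1 and ulna 2 came closest to the skull arrays, without overlap (0.81 ± 0.19, adjusted p = 0.0135).

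The chondroitin sulphotransferases other than Chst14 did not pass. Chst12, a 4-O-sulphotransferase, had 95.1, 96.3, 93.7 and 211 in the skull and 150, 147, 131, 172 and 129 in the limb. Calvaria 1, 2 and 3 were below the whole limb group and calvaria 4 was above it, so that the difference of -0.32 ± 0.24 did not pass (adjusted p = 0.413). Without calvaria 4 it was -0.61 and passed (adjusted p = 0.00358), and the further probe set had -0.63 ± 0.23 over all arrays (adjusted p = 0.0938). Chst11, another 4-O-sulphotransferase, and Chst3, a 6-O-sulphotransferase, were each above the absent control on 1 of 9 arrays, with differences of 0.67 ± 0.27 and -0.61 ± 0.49 (adjusted p = 0.122 and 0.457).

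Among the heparan enzymes, the N-deacetylase and N-sulphotransferases Ndst1 and Ndst2 had differences of 0.40 ± 0.23 and 0.28 ± 0.20 (adjusted p = 0.266 and 0.389). Hs6st1, a 6-O-sulphotransferase, had 0.28 ± 0.11 (adjusted p = 0.108). Hs6st2, of the same family, was above the absent control on calvaria 3 (10.3) and calvaria 4 (13.2) and on no other array, so that its nominal difference of 1.06 ± 0.51 has an interval from -0.11 to 2.22. The extracellular sulphatases Sulf1 and Sulf2, which remove 6-O-sulphate, had 0.07 ± 0.14 and -0.18 ± 0.09 (adjusted p = 0.791 and 0.244). Chst1 and Chst2, sulphotransferases of keratan sulphate and related glycans, had 0.08 ± 0.23 and 0.23 ± 0.11, and Chst10, which sulphates the HNK-1 epitope, had 0.44 ± 0.17 (adjusted p = 0.860, 0.203 and 0.0982).

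By chain type, 5 of 14 heparan genes (35.7%) were higher and none lower by the adjusted p, against 12.9% and 16.6% of all genes. At an unadjusted p below 0.05, 7 were higher and 0 lower. Of 9 chondroitin and dermatan genes, 4 (44.4%) were higher and 2 (22.2%) lower, the latter a share near that of all genes. Of 12 genes shared by the sulphated chains, 6 (50%) were higher and 1 (8.33%) lower. The 3 genes of keratan and other glycans and the 1 of hyaluronan did not pass. A difference between steps or between chain types was not tested.

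Some steps are served by a pair of related genes, and 7 such pairs were picked after the values were seen. They were compared on each array by the log2 signal of the first gene minus that of the second. Ext1 and Ext2 are subunits of a complex, not isoenzymes. Levels of different genes cannot be set against each other on these arrays, so only the change of this value between the sites is read. For Papss2 minus Papss1 the skull arrays lay 1.37 above the limb arrays (skull -1.34 to -0.85, limb -2.72 to -2.0), without overlap. The exact two-sided permutation p was 0.00794, the smallest that 126 regroupings of the arrays allow, and 0.0278 after adjustment over the 7 pairs. For Csgalnact2 minus Csgalnact1 the skull arrays lay 0.56 above the limb arrays (1.51 to 1.68 against 0.80 to 1.17, exact permutation p = 0.00794, adjusted 0.0278). Each pair was read on the brightest probe set of each gene. The dimmer probe set of Csgalnact1, which was not used here, overlapped between the sites (11.8 to 33.4 in the skull, 27.8 to 37.1 in the limb).

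In the other 5 pairs the arrays of the sites overlapped. The changes were 0.70 for Xylt2 minus Xylt1, 0.11 for Chpf minus Chpf2, 0.16 for Ext2 minus Ext1, 0.12 for Ndst1 minus Ndst2 and 0.25 for Sulf1 minus Sulf2. Their exact permutation p-values were 0.286 to 0.746, or 0.481 to 0.746 after adjustment, which does not show that the members of a pair act alike. Since the pairs were picked with the values known, these p-values describe the arrays only.

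**Figure D3:**
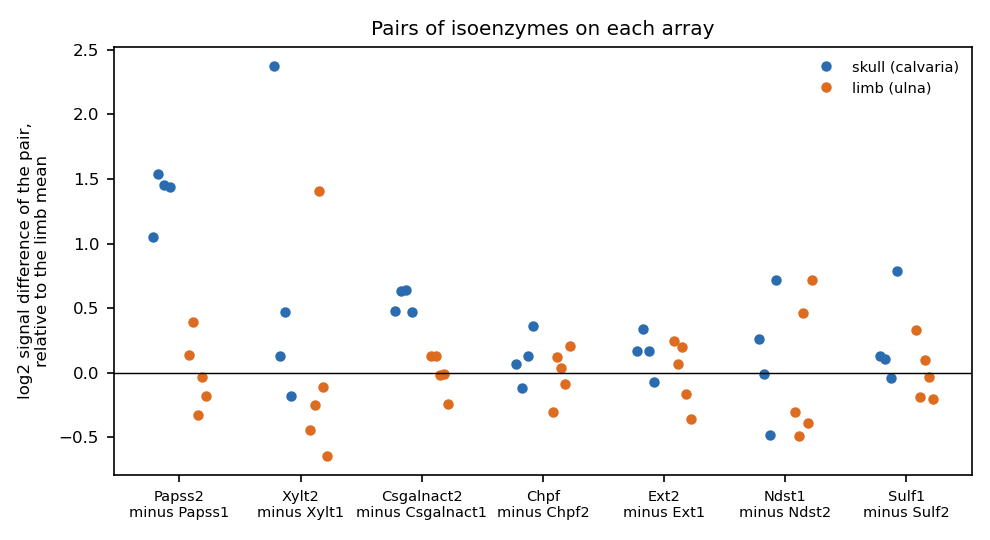
Log2 signal of the first gene minus that of the second on each array, for 7 pairs of related genes (x axis). The y axis is set to 0 at the limb mean of each pair, with skull arrays in blue and limb arrays in orange. The skull and limb points do not overlap for Papss2 minus Papss1 (a change of 1.37) and Csgalnact2 minus Csgalnact1 (0.56), and they overlap in the other 5 pairs. Only the brightest probe set of each gene is used.

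Further probe sets gave a second reading for 11 of the enzymes. Of these 14 probe sets, 13 had the sign of the brighter one, the exception being Sulf1 (-0.68 ± 0.51, mean signals of 1.84 and 5.08). Of the 10 that belong to enzymes past the adjusted p, 6 passed with the same sign. The 4 that did not were those of Csgalnact1, Chpf2, Ext1 (0.92, adjusted p = 0.0510) and Extl3.

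The order of the arrays within a site was read over the 15 higher enzymes. Among them, calvaria 3 was the highest skull array for 10 and calvaria 4 the lowest for 10, with calvaria 1 the lowest for the other 5. Ulna 3 was the lowest limb array for 10. Their mean log2 signal over the 15 was 7.65 to 8.0 on the skull arrays and 6.85 to 7.14 on the limb arrays. Over all 39 enzymes the order differed, with calvaria 1 lowest (6.29), calvaria 2 and calvaria 4 level (6.42) and calvaria 3 highest (6.55). The order over all genes was not examined. The log2 ratio of 3' to 5' control probe sets, a measure of RNA degradation, was 0.277 to 0.594 for Gapdh in the skull and 0.209 to 0.372 in the limb, and 0.747 to 1.035 and 0.571 to 0.858 for beta-actin. It was highest on calvaria 3 and next highest on calvaria 4, which were most often the highest and the lowest skull array among the 15. Its part in the site differences was not tested.

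The genes next to this pathway were described by lists. Of 13 measured further GAG enzymes, none passed both thresholds, and 5 were higher and 0 lower at an unadjusted p below 0.05. By the adjusted p alone 3 were higher, against 12.9% of all genes. They were Bpnt2, a Golgi phosphatase that clears the product left by PAPS use (0.36 ± 0.08), Pxylp1, which removes the phosphate of the linker xylose (0.29 ± 0.07), and B4galt4, a galactosyltransferase (0.85 ± 0.21, named after its values were seen). Of 9 genes of UDP-sugar supply none passed both thresholds, and 4 were higher and 2 lower at an unadjusted p below 0.05. By the adjusted p 4 were higher and 1 lower, against 12.9% and 16.6% of all genes. The higher ones were Slc35a2 (0.99 ± 0.14), Nagk (0.87 ± 0.08), Pgm3 (0.79 ± 0.22) and Gnpnat1 (0.46 ± 0.07). The lower one was the hexokinase Hk1 (-0.86 ± 0.11), and the phosphoglucomutase Pgm1, whose product Ugp2 uses, had -0.43 ± 0.18 (adjusted p = 0.136).

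In the list of proteoglycan core proteins, 7 of 33 genes were higher and 2 lower at both thresholds, with a median of 0.61. Whether each of the 33 carries a chain was not examined. The 2 lower ones were Aspn (-1.51 ± 0.29) and Chad (-1.27 ± 0.39). Among those past both thresholds, the smallest p belonged to the glypicans Gpc1 (1.13 ± 0.08) and Gpc4 (1.62 ± 0.17) and the small leucine-rich proteoglycan biglycan, Bgn (1.24 ± 0.11). Aggrecan, Acan, the large chondroitin sulphate proteoglycan of cartilage, was lower by the adjusted p (-1.0 ± 0.24, mean signals of 66.6 and 132). Of 14 genes listed for GAG degradation, not all of them degrading enzymes, 3 were higher at both thresholds, against 3.47% of all genes. They were the sulphatase Arsb (1.76 ± 0.17), the glucosaminidase Naglu (1.33 ± 0.13) and Hyal3 (1.13 ± 0.17). The heparanase Hpse was lower (-1.16 ± 0.18). By the adjusted p alone, 16 of the 33 listed core proteins were higher and 4 lower. Of the 14 genes listed for degradation, 8 were higher and 1 lower. The shares of all genes were 12.9% higher and 16.6% lower. Of 15 genes of hyaluronan binding and turnover, 3 were higher and 2 lower at both thresholds, with a median of 0.09. By the adjusted p alone, 5 of them were higher and 3 lower. The link protein Hapln3 (1.57 ± 0.17) and the scavenger receptor Stab1 (1.06 ± 0.12) were higher, and the hyaluronan receptor Hmmr, which is also a mitotic protein, was lower (-1.10 ± 0.16).

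**Figure D4:**
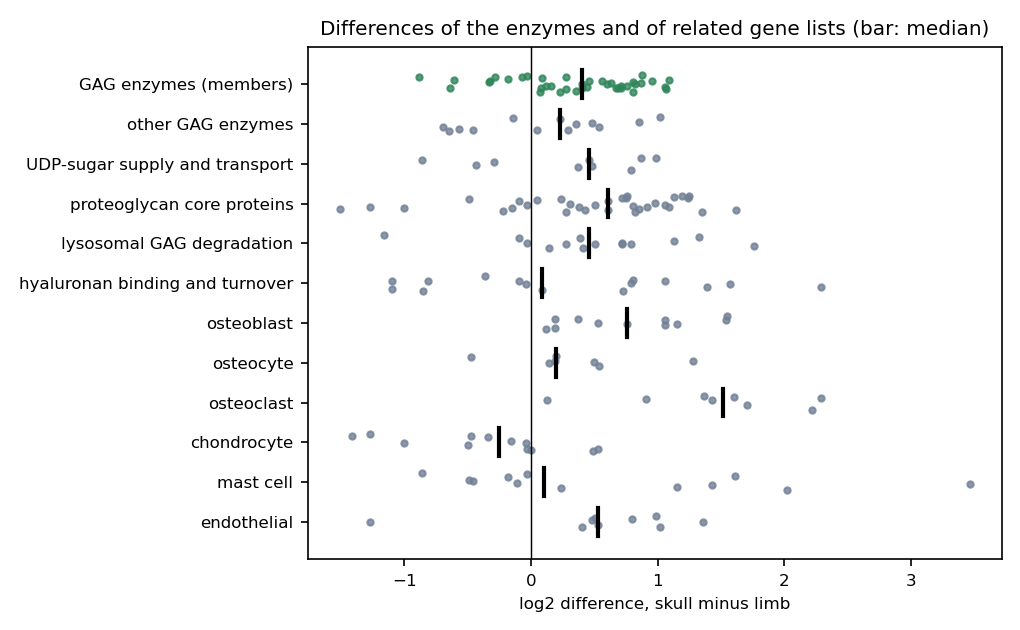
Log2 difference, skull minus limb (x axis), of each measured gene (points) in the GAG enzyme set and in 11 related lists (y axis), with a bar at the median of each list. The enzymes have a median of 0.40, the core proteins 0.61, the osteoblast markers 0.76 and the osteoclast markers 1.52.

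Markers of other cell types differed between the sites too. The 11 osteoblast markers had a median of 0.76 and summed signals of 38300 to 50000 in the skull and 27800 to 37500 in the limb. Col1a1 (0.19), Col1a2 (0.12), Bglap (0.19) and Sparc (0.37) did not pass the adjusted p, and the other 7 were higher by it. Among the 7, Omd was also counted with the core proteins and Dlx5 with the positional genes. The 8 osteoclast markers had a median of 1.52 and sums of 10500 to 15200 and 4630 to 5530. The 12 markers of mast cells, whose granules hold heparin, had a median of 0.11 with sums of 3110 to 3590 and 3200 to 4170. Srgn made up most of these sums, with mean signals of 2290 and 3230 (-0.49 ± 0.12). Of the 12, 5 were higher at both thresholds, by 1.15 to 3.47, and 2 were lower by the adjusted p, Srgn among them. The 9 endothelial markers had a median of 0.53 with sums of 1890 to 1990 and 1330 to 1600. None of the defining markers of these 4 cell types was at the floor on all arrays. The part of these cells in the differences of the GAG enzymes was not tested.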

How the data were processed

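The authors deposited linear MAS5 intensities, with 1 value for each probe set on each array, scaled by them to a common level. Per the labels, RNA was labelled by one-cycle cDNA synthesis. The table held 31099 rows, of which 57 controls were left out and 31042 were tested. All 9 columns were used and no 2 arrays were identical. Here each array was divided by its median and multiplied by the mean of the medians, floored at the 10th percentile (2.51), which shrinks differences of dim genes, and taken to log2. Skull and limb were compared with limma (version 3.58.1, R 4.3.3; lmFit, eBayes with intensity trend, two-sided). A call needed a Benjamini-Hochberg adjusted p below 0.05 over all tested probe sets and a 2-fold difference, and a second count used the adjusted p alone. Genes were named through the platform annotation (20826 probe sets with 1 symbol, 436 with several, 9780 with none; 20758 matched to RefSeq, GRCr8). The fit was tested on simulated data. Precision is limited by the number of arrays.

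Every measured enzyme is named, and those past the adjusted p are given on every array. Of each list of related GAG genes, the 3 genes with the smallest adjusted p among those called, or the 2 brightest where none was called, are named. Cell type marker lists are given by counts, medians and sums, with Hoxa9 as the site check, which departs from this rule. Hpse, Acan, B4galt4, Slc35a2, Nagk, Pgm3, Gnpnat1, Srgn, Myh1, Col2a1 and Col9a1 are named beyond it. So are Aspn, Chad, Col1a1, Col1a2, Bglap, Sparc, Omd and Dlx5. All of these were chosen after their values were seen. The enzymes and lists were chosen with earlier results of these data known, and the pairs of related genes after the values were seen. Alternatives covered the floor, the scaling, the prior, the adjustment, probe set averaging, a replicate block and each array left out.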

Additional observations from a re-analysis of the deposited data

Results flagged for a closer look

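In 7 of the 77 sets of arrays tested (1 gene at 1 site), the highest array lay far from the others of its site. Chance alone gives about 1 in 20. The largest gap among bright genes was that of Chst12, a chondroitin 4-O-sulphotransferase, with a scaled signal of 211 on calvaria 4 and 93.7 to 96.3 on the other skull arrays. B3galt6, of the linker, had 40.3 on calvaria 1 and 21.8 to 23.6 on the others. Ulna 1 was set apart for 2 precursor genes, with 145 for Slc35b2 (115 to 122 on the other limb arrays) and 351 for Ugdh (301 to 308 on the others), in each case toward the skull level. The remaining 3 were Slc26a2 on calvaria 2 (3.91), Chst3 on calvaria 1 (5.91) and Hs6st2 on ulna 3 (3.01), all below the highest absent control.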

How the results depend on the processing

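Of 20 alternatives, 2 lowered the count of enzymes called higher at both thresholds, which was 2. It was 0 with log2(signal + 16), where Papss2 and Slc35b2 each had 0.99 and the median of the enzymes was 0.26, and 1 without calvaria 3, which took Slc35b2 to 0.95. With 1 array left out the count ranged from 1 to 3, the count by the adjusted p alone from 15 to 16 higher and 3 to 4 lower, and the median from 0.36 to 0.43. Ext2 joined the 2-fold call without further scaling (1.02), with quantile normalization (1.03) and without calvaria 1 (1.01), calvaria 4 (1.10) or ulna 2 (1.05). Of the 18 enzymes past the adjusted p, 14 were past it in all 20 alternatives. Extl3 was not when probe sets were averaged (0.45, adjusted p = 0.502), and Csgalnact2, Hs3st1 and Ugdh were not with a replicate block (adjusted p = 0.0566, 0.0904 and 0.0568).

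The block, in which ulna 5 has no partner, left 2 enzymes called higher, 13 higher and 2 lower by the adjusted p, and a median of 0.42. The replicate numbers are not stated to pair the samples, and deviations of same-numbered arrays correlated at 0.0384, -0.0100, -0.00922 and 0.0433, so pairing was not taken as given. Only numbers 1 and 4 correlated best with their own.

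Signs turned only for enzymes that did not pass and for 1 pair. With 1 array left out, Xylt1 ranged from -0.39 to 0.49, Glce from -0.13 to 0.10, Sulf1 from -0.07 to 0.15, B3galt6 from -0.12 to 0.18, Chst1 from -0.06 to 0.33, Has2 from -0.03 to 0.27 and the pair Ndst1 minus Ndst2 from -0.08 to 0.32. Xylt1 was also 0.10 with a floor at the 25th percentile and 0.14 with the block, Glce 0.03 unscaled and 0.01 with array weights, and Sulf1 -0.30 with probe sets averaged. The pairs of Papss and Csgalnact genes kept 1.29 to 1.48 and 0.50 to 0.59 with 1 array left out, where the fewer regroupings allow an adjusted p of 0.0625 or 0.10. Slc26a2, Chst3, Chst11, Hs6st2 and Xylt1 lay near background, which limits what can be read from them. The cause of the other changes was not tested.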
